A study of Mus musculus with 8 samples.

Results

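Bex3, Bex4, Tceal3 and Tceal5 are 4 genes of the brain-expressed X-linked (Bex) and transcription elongation factor A-like (Tceal) families. These 4 lie within 529 kb on the X chromosome. They were taken from a table of 1329 genes in the ascending aorta by matching Ensembl identifiers to these symbols, and all 4 were found. The table holds genes selected for a difference between treated and control mice. These 4 were chosen by their values in that same comparison, which are therefore given as a description, with no test. The sources used here do not give the threshold behind the table, so no values just inside or outside it can be set apart. Of 12 genes annotated in both families (5 Bex and 7 Tceal), the expression of the other 8 was not analysed here.

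RNA was sequenced from ascending aortas of Fbn1 mgR/mgR mice, which make too little fibrillin-1, the main protein of elastic microfibrils, and model Marfan syndrome. All mice in both groups carried this genotype, so no healthy aorta is compared. The DT-061 group (4 libraries) received 5 mg/kg of DT-061, a small molecule activator of protein phosphatase 2A, by mouth 2 times a day from an age of 5 weeks for 4 weeks, and the Vehicle group (4 libraries) received the solvent on that schedule. The labels used here state neither the sex of the mice nor whether each library came from a separate animal, so the spread between libraries may be partly technical. FPKM is the number of fragments scaled by transcript length and library depth. The depth that the authors' scaling implies ran from 14100000 to 22200000 fragments per library.

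Bex proteins are small, largely unstructured adaptor proteins. Bex3, first described as a partner of the p75 neurotrophin receptor, is linked to cell death and neurotrophin signalling, and Tceal proteins resemble a part of the elongation factor TFIIS that helps RNA polymerase II move on after it stalls. The families are best known from brain and endocrine tissue, and they expanded together in placental mammals.

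All 4 genes shared a sequence at a transcription start site. Each promoter below holds a TGACG, a core part of the cyclic AMP response element read by CREB and ATF factors, followed 7 or 9 bases later by CACGTG, the E-box core read by basic helix-loop-helix factors, and then an A. The elements are printed because all 4 genes were higher with DT-061, with TGACG and CACGTGA in capitals, and the same reading in Armcx1, an X-linked neighbour in the table, and in Bex1 is set beside them.
Bex3: TGACGcagggccctCACGTGA
Bex4: TGACGcaagtggCACGTGA
Tceal3: TGACGcggtgttCACGTGA
Tceal5: TGACGttcctgtCACGTGA
Armcx1: TGACGtgcccctCACGTGA
Bex1: TGACGcaagtggCACGTGA

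The 19 bases of Bex4 and Bex1 were identical. The Bex3 element was 21 bases long, with a spacer of 9, and the other 3 of the 4 genes had a spacer of 7. On GRCm38.p6 they lay at chrX:136270266-136270286 (Bex3, plus strand), chrX:136138975-136138993 (Bex4, plus), chrX:136666366-136666384 (Tceal3, plus) and chrX:136203893-136203911 (Tceal5, minus). Counted from the single RefSeq start site of Bex4, its element covered bases -21 to -3. Tceal5 has 3 RefSeq starts, and its element covered bases -27 to -9 from one of them and -179 to -161 from another. The Tceal3 element crossed one of its 3 RefSeq starts, from base -9 to 10, and lay at -245 to -227 from another, and the Bex3 element lay just inside the transcript, from base 14 to 34.

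The pairing was rare among promoters of equal length. Searched on both strands in the 300 bases around each RefSeq start, TGACG, 7 or 9 free bases and CACGTGA occurred in 16 of 27025 genes (0.0592%). Of these, 11 belonged to the Bex, Tceal, Armcx and Gprasp families: Bex1, Bex3, Bex4, Tceal1, Tceal3, Tceal5, Tceal6, Tceal8, Armcx1, Armcx4 and Armcx6. Of the 989 table genes with a promoter entry, 5 held it, the 4 members and Armcx1. Alone, CACGTG was found in 8.09% and TGACG in 23.0% of all genes. The pattern was written down after the promoters of the 4 genes had been read, so its presence in them is no finding, and a match describes letters and not binding.

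**Figure D1:**
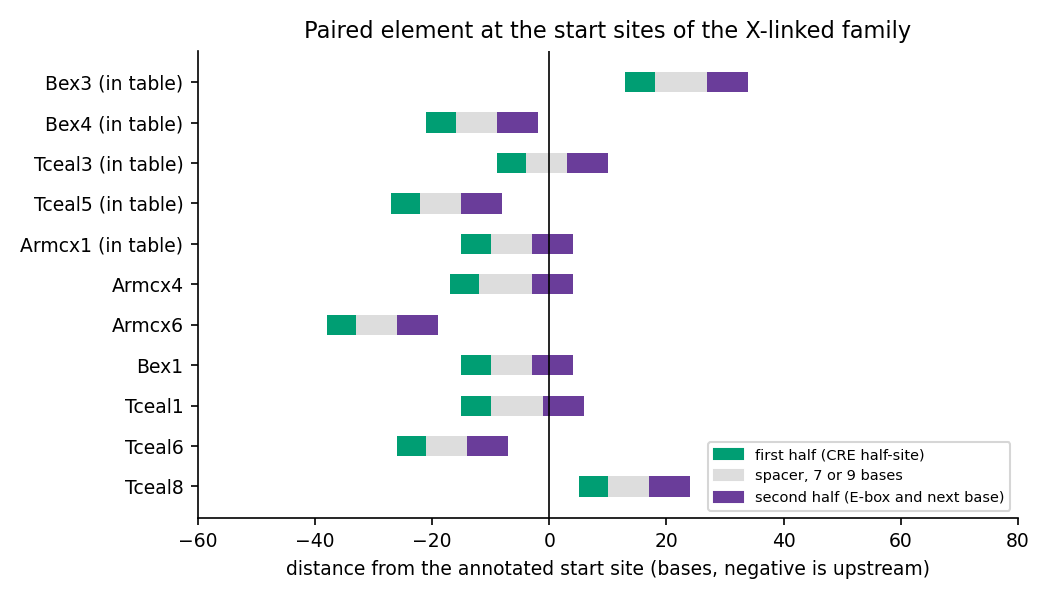
Position of the paired element around an annotated start site (the nearest where a gene has several) in the 11 genes of the X-linked families that hold it; the x axis is the distance from the start in bases, green is the TGACG part, grey the spacer of 7 or 9 bases and purple the CACGTGA part. In 9 of the 11 genes the element begins upstream of the start, while in Tceal8 it runs from base 6 to 24 and in Bex3 from base 14 to 34.

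The 100 bases before a start of each gene follow. Capitals mark TGACG, the E-box core CACGTG and the GC box core GGGCGG, each read on either strand. The stretches of Bex4 and Tceal5 hold the whole element. That of Tceal3 ends inside its element, and that of Bex3 ends before it. The TGACG in capitals for Bex3 is another site and not part of its element, as is the first of 2 for Tceal5.
Bex3: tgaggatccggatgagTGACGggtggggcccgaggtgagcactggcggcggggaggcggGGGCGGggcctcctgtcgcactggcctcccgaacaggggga
Bex4: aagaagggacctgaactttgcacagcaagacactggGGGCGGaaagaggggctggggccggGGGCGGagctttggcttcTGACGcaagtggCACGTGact
Tceal3: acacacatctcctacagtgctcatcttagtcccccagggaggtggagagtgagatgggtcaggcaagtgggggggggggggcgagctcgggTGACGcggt
Tceal5: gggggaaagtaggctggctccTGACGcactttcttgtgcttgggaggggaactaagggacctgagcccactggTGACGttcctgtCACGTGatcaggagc
These stretches are chrX:136270153-136270252, chrX:136138896-136138995, chrX:136666275-136666374 and, on the minus strand, chrX:136203885-136203984. Bex3 was the richest in G and C (74%), Bex4 held 62%, Tceal3 64% and Tceal5 59%, where the median of all 32851 windows was 55%. None of the 4 genes had a TATAAA in its windows, against 15.7% of all genes that did.

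Bex3 (ENSMUSG00000046432, GRCm38 chromosome X, 136270253 to 136271978, protein coding, 4 annotated transcripts) was the most abundant of the 4. Its DT-061 libraries 1 to 4 held 41.2, 36.9, 62.6 and 41.2 FPKM, and its vehicle libraries 1 to 4 held 22.8, 27.4, 32.8 and 29.98 FPKM. Every DT-061 library was above every vehicle library, and DT-061 library 3 stood well above the other DT-061 libraries. The group means were 45.5 ± 11.6 and 28.3 ± 4.21 FPKM (SD, n = 4), a 1.61-fold higher mean with DT-061. On the log2(FPKM + 1) scale the difference was 0.65 ± 0.18 (SE). Bulk RNA cannot tell fewer cells of a type from less RNA per cell, here or below. Between 345 and 848 fragments stood behind each value, so that counting error was small (about 4.07% in the DT-061 libraries) beside the spread of 25.5% between them.

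Bex4 (ENSMUSG00000047844, chromosome X, 136138996 to 136140443, 1 transcript) showed the largest shift of the 4 and the widest scatter. In human cells its product is known for binding tubulin and for a role in chromosome segregation. DT-061 libraries 1 to 4 held 12.2, 5.73, 18.03 and 9.90 FPKM, and vehicle libraries 1 to 4 held 1.33, 3.82, 5.74 and 4.48 FPKM. The groups overlapped: DT-061 library 2, the lowest of its group, lay at 5.732 FPKM and vehicle library 3, the highest of its group, at 5.743. The means were 11.5 ± 5.13 and 3.84 ± 1.86 FPKM (SD, n = 4), 2.98-fold higher with DT-061, and the log2 difference was 1.37 ± 0.41 (SE). Vehicle library 1 rested on 18 fragments (95% exact Poisson interval 10.7 to 28.4, for counting error only), while the other vehicle libraries had 53 to 84 and the DT-061 libraries 75 to 219.

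Tceal3 (ENSMUSG00000044550, chromosome X, 136590842 to 136668378, 7 transcripts) held 16.2, 13.1, 21.7 and 13.8 FPKM in DT-061 libraries 1 to 4 and 6.64, 7.97, 8.35 and 10.2 FPKM in the vehicle libraries. The groups were clear of each other, with the lowest DT-061 value 1.29 times the highest vehicle value. Means of 16.2 ± 3.90 and 8.28 ± 1.46 FPKM (SD, n = 4) gave a 1.96-fold higher mean and a log2 difference of 0.88 ± 0.18 (SE). Fragments per library ran from 201 to 590. The level of Tceal3 relative to the other genes depends on the length chosen: its FPKM values correspond to whole fragments with a length of 1871 bases, that of its longest, non-coding transcript, whereas its longest coding transcript has 1148 bases, and with the shorter length every value would be 1.63 times higher with the same fold between groups.

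Tceal5 (ENSMUSG00000054034, chromosome X, 136200948 to 136203876, 3 transcripts) was the least abundant. Its DT-061 libraries 1 to 4 held 2.40, 2.39, 3.43 and 2.47 FPKM and its vehicle libraries 1 to 4 held 1.01, 0.863, 1.26 and 1.90 FPKM. Here too no vehicle library reached the DT-061 range, and 3 of the 4 DT-061 libraries were nearly equal. The mean was 2.67 ± 0.507 against 1.26 ± 0.459 FPKM (SD, n = 4), 2.13-fold higher, with a log2 difference of 0.71 ± 0.19 (SE). Only 17 to 28 fragments per vehicle library and 36 to 52 per DT-061 library were behind these values, and counting error (21.7% and 15.7%) was not far below the spread of 36.5% and 18.9% between libraries.

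**Figure D2:**
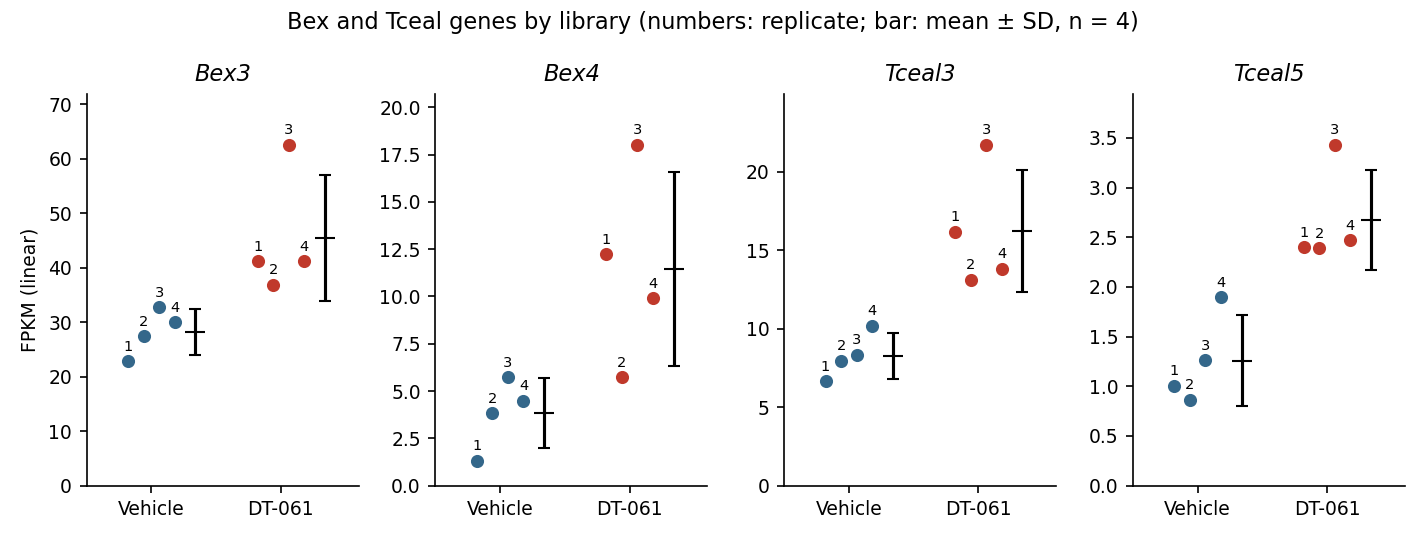
FPKM of the 4 genes in each library on linear axes that start at 0; points are libraries, numbered by replicate, and bars are the mean ± SD of 4. Vehicle points lie below all DT-061 points in Bex3, Tceal3 and Tceal5, while in Bex4 the ranges touch at 5.73 and 5.74 FPKM, and DT-061 replicate 3 is the highest point in every panel.

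In 3 of the 4 genes the DT-061 values lay wholly above the vehicle values, in a table where 30.1% of the rows did so; as the table was built on this contrast, nothing is read from that count. By limma with Benjamini-Hochberg adjustment, 95.4% of the rows differed, 30.4% of all rows as higher and 65.0% as lower. The order of levels was Bex3, Tceal3, Bex4 and Tceal5 in the DT-061 and the vehicle group alike. Neighbours in that order were separated beyond their SDs between Bex3 and Tceal3 in both groups, while Tceal3 at 16.2 ± 3.90 and Bex4 at 11.5 ± 5.13 FPKM overlapped in the DT-061 group, and the vehicle libraries of Bex4 (from 1.33 FPKM) and Tceal5 (up to 1.90 FPKM) overlapped too. With the 1329 rows ordered from the most raised to the most lowered log2 difference, Bex4 ranked 1, Tceal3 21, Tceal5 56 and Bex3 89. By the ratio of mean FPKM, DT-061 over vehicle, they ranked 8, 48, 35 and 120. These ranks keep the sign, and lowered rows could differ by more, as Jchain did at -4.68. The median log2 difference of the 435 rows that were higher was 0.47, and that of the 4 genes was 0.80.

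**Figure D3:**
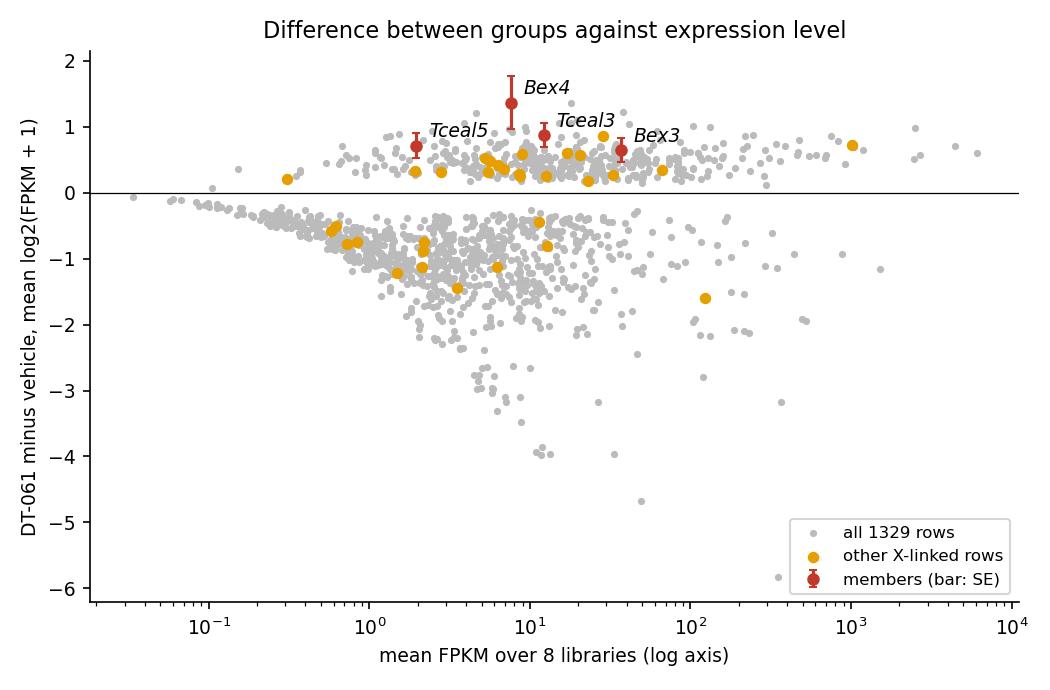
DT-061 minus vehicle difference of the mean log2(FPKM + 1) against mean FPKM (log axis) for all 1329 rows in grey, other X-linked rows in orange and the 4 genes in red with the SE as a bar. Bex4 at 1.37 sits at the top of the plot, and Bex3, Tceal3 and Tceal5 lie at 0.65, 0.88 and 0.71 over a wide span of levels.

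Near-identical copies limit how firmly reads can be given to one gene. Of all stretches of 150 bases, the read length, in annotated transcripts of Bex4, 15.0% also occurred in transcripts of another gene, and of stretches of 50 bases 49.7% did, shared with Bex1, Tceal7 and the loci Gm12245 and Gm4322. For Tceal5 the shares were 8.54% and 25.4%, with Tceal3 and Tceal6 as partners, for Tceal3 2.10% and 12.9%, with Tceal5 and Tceal6, and for Bex3 0.988% and 12.3%, with Bex2. The values of Bex4 and Tceal5 are therefore uncertain where the counting split or dropped such reads. Armcx1 shared no stretch of 50 bases.

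The 4 genes tended to deviate together within the groups. DT-061 library 3 had the highest and DT-061 library 2 the lowest value of its group for all 4 genes. Vehicle library 1 was the lowest vehicle library for Bex3, Bex4 and Tceal3, as it was in 43.0% of all 435 higher rows. With the group means removed, Pearson's r of log2(FPKM + 1) over the 8 libraries was 0.89 (Spearman's rho 0.93) between Bex3 and Bex4, 0.89 (0.90) between Bex3 and Tceal3 and 0.83 (0.98) between Bex4 and Tceal3. Tceal5 followed less closely, with r of 0.69 to Bex3, 0.55 to Bex4 and 0.82 to Tceal3. These are 6 pairs given as a description, with no p-value, because the genes were chosen with the data known. Among all pairs of the 418 higher rows with a mean of at least 1 FPKM, the median r was 0.36 and the upper quartile 0.67. Next, the 2 libraries in which 1 gene of the pair lay farthest from its median were left out. They were DT-061 library 3 and vehicle library 3 for the pairs with Bex3. For Bex4 with Tceal3 or Tceal5 they were vehicle library 1 and DT-061 library 2, so DT-061 library 3 stayed in. In these 5 pairs r ran from 0.57 to 0.92. The relation of Tceal3 to Tceal5 dropped to 0.17 without DT-061 library 3 and vehicle library 4, on which it rests. The other pairs were not tried without those 2 libraries.

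DT-061 library 3 stood apart in the table as a whole: it was the highest DT-061 library in 72.9% of the rows that were higher. Without it, the mean with DT-061 remained above that with vehicle, by 1.41-fold for Bex3, 2.42-fold for Bex4, 1.74-fold for Tceal3 and 1.93-fold for Tceal5. In log2 terms, leaving out any single library gave 0.49 to 0.74 for Bex3, 1.05 to 1.63 for Bex4, 0.74 to 0.97 for Tceal3 and 0.62 to 0.84 for Tceal5.

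**Figure D4:**
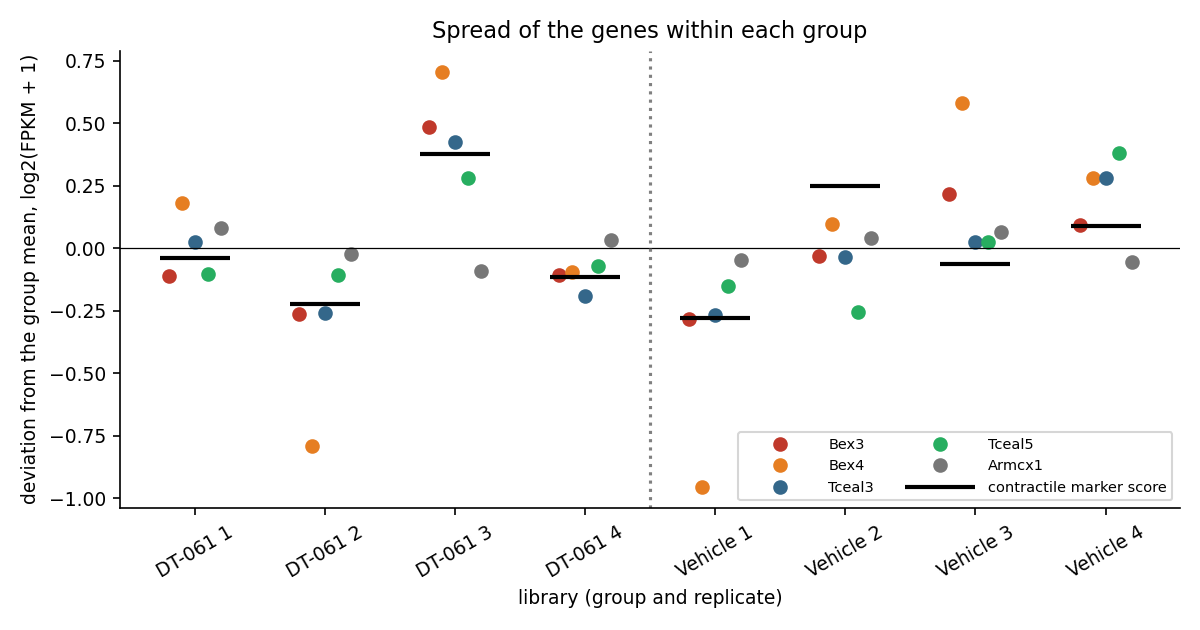
Deviation of each library from its own group mean in log2(FPKM + 1), for the 4 genes and Armcx1 (points) and for the mean of 9 contractile marker genes (black bars), with DT-061 libraries left of the dotted line. All 4 genes lie above 0 in DT-061 replicate 3 and below it in vehicle replicate 1, where Bex4 is the farthest, while Armcx1 stays near 0 throughout.

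Armcx1 is a mitochondrial armadillo repeat protein gene of the neighbouring family, and was the sole other row within 2 Mb of a member. It held 10.1, 9.36, 8.88 and 9.77 FPKM in DT-061 libraries 1 to 4 and 7.40, 7.92, 8.06 and 7.34 in the vehicle libraries. The groups did not overlap, but the shift was small, 1.24-fold with a log2 difference of 0.28 ± 0.09 (SE). Its r with the 4 genes over all 8 libraries ran from -0.59 to 0.13. With Tceal3 it was -0.37, and 0.92 without DT-061 library 3 and vehicle library 4, so that relation rests on those libraries. The 4 members lie within 529 kb, a stretch in which the annotation places 10 protein coding genes. Expression of the other genes of that stretch was not analysed here.

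X-linked genes went both ways. Of 36 X-linked rows 23 were higher and 13 lower with DT-061, with a median log2 difference of 0.27, and without the 4 members 19 were higher and 13 lower, with a median of 0.26. Over all 1329 rows 32.7% were higher and the median was -0.58. Beside Bex4 and Tceal3, the largest X-linked difference was that of Pnck, a calmodulin-dependent kinase gene, at 0.86 ± 0.21 (SE), with 29.2 to 57.2 FPKM against 17.2 to 22.7. At the other end were the metalloproteinase inhibitor gene Timp1 at -1.60 ± 0.39 and the lymphocyte receptor genes Il2rg at -1.44 ± 0.46 and Cxcr3 at -1.22 ± 0.36. No row lay on the Y chromosome.

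Bex3 is linked to the p75 neurotrophin receptor, and 3 genes of the neurotrophin list are described here. They are not the whole of that list, so no direction is given for the pathway. In each the groups were clear of each other, against 78.3% of all rows in either direction, a share that selection set and from which nothing is read.

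Ntf3, neurotrophin-3, was higher. It held 29.0, 20.3, 27.04 and 25.6 FPKM with DT-061 and 13.8, 13.7, 11.9 and 13.9 with vehicle, a 1.91-fold higher mean with a log2 difference of 0.87 ± 0.12 (SE). Its receptor gene Ntrk3 (TrkC) held 28.1, 27.4, 39.0 and 30.8 FPKM against 20.4, 23.2, 19.98 and 23.6, a difference of 0.49 ± 0.13. Sort1, the sorting receptor sortilin that pairs with p75 for unprocessed neurotrophins, went from 15.5 to 16.6 FPKM in the vehicle libraries to 18.96 to 21.9 with DT-061, a difference of 0.33 ± 0.08. So both the ligand and the receptor of the NT-3 branch stood higher in every DT-061 library than in any vehicle library.

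**Figure D5:**
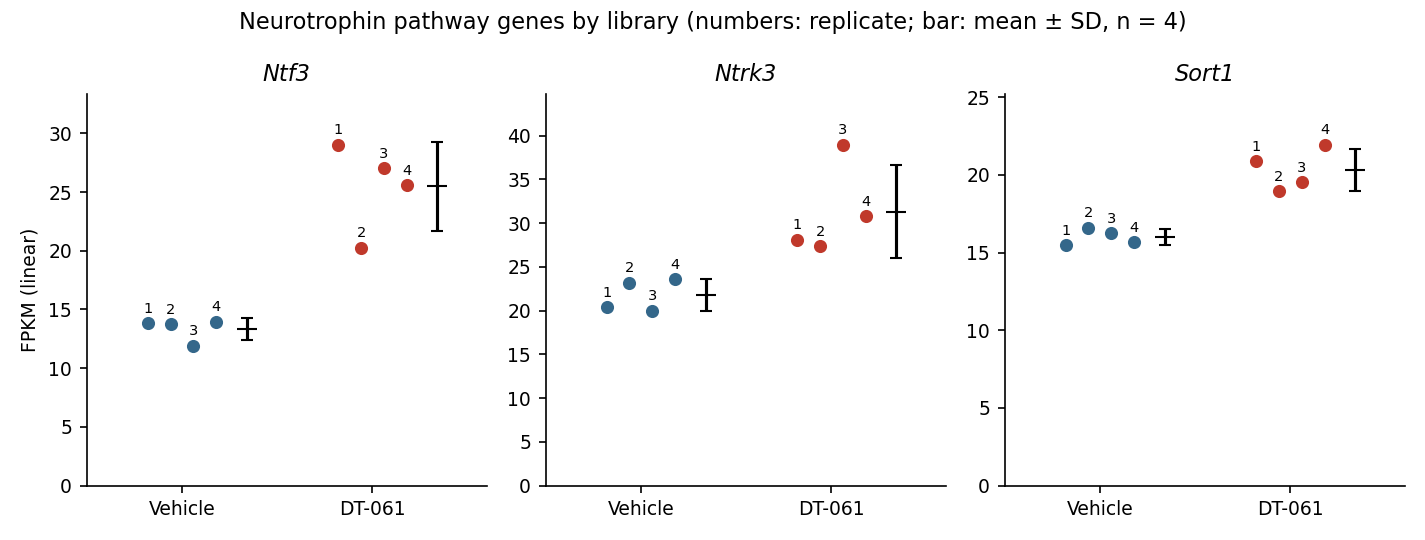
FPKM of 3 neurotrophin pathway genes in each library on linear axes that start at 0; points are libraries, numbered by replicate, and bars are the mean ± SD of 4. Ntf3, Ntrk3 and Sort1 lie higher with DT-061, with no overlap of the groups in any panel.

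Of 30 transcription elongation genes, the machinery that Tceal proteins resemble in part, 1 was in the table. Tcea3, a tissue-restricted form of TFIIS, held 20.8, 16.5, 29.96 and 20.3 FPKM in the DT-061 libraries and 14.5, 15.6, 14.0 and 15.5 in the vehicle libraries. Its lowest DT-061 value lay just above the highest vehicle value, and the log2 difference was 0.49 ± 0.16 (SE). DT-061 library 3 was again the highest.

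Markers of several cell types also differed between the groups. The 9 contractile smooth muscle markers in the table, of 15 listed, were all higher, with a summed level of 16691 to 25277 FPKM with DT-061 and 9202 to 14442 with vehicle. Among them Myh11, smooth muscle myosin, differed by 0.79 ± 0.17, Tagln by 0.71 ± 0.15 and Myl9 by 0.98 ± 0.22, and Acta2 by 0.60 ± 0.21. Acta2 was the highest row of every library, so quantile normalization gives it 1 value in all of them by construction. Within groups the score of these 9 genes ran along with Tceal3 (r = 0.83), Bex3 (0.79) and Bex4 (0.77) and less with Tceal5 (0.43), as a description over 8 libraries. The score of the T and B cell markers ran opposite to the 4 genes, with r of -0.52 (Bex3), -0.66 (Bex4), -0.76 (Tceal3) and -0.65 (Tceal5). That of the fibroblast markers had r = -0.44 with the mean of the 4 genes, and Mpeg1, a macrophage marker, had r = -0.88. In the whole table, DT-061 library 3 was the highest DT-061 library in 72.9% of the higher and 7.38% of the lower rows. How far other rows follow these scores was not computed, so the r values are not read as particular to the 4 genes. All 3 fibroblast markers in the table (of 11) were lower, their sum at 84.8 to 155 against 221 to 361 FPKM. Lum, one of them, turned to higher with the median rescaling, at 0.05. Of 11 T and B cell markers, 7 were in the table, their sum at 5.84 to 28.05 against 32.7 to 990 FPKM. All 7 had a lower mean with DT-061, 6 of them with an adjusted p under 0.05 in limma, and in 3 the groups did not overlap. The macrophage marker Mpeg1 (1 of 11) differed by -2.14 ± 0.64. The adipocyte marker Cfd (1 of 7) was at 72.4 to 329.7 FPKM against 489 to 1391. The part of these shifts in the values of the 4 genes was not tested.

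Neurons are cells in which Bex and Tceal genes are known to be abundant. Of 17 neuron markers 2 were in the table, and they went opposite ways: Uchl1, an abundant neuronal deubiquitinase, had 112 to 124 FPKM with DT-061 and 79.4 to 106 with vehicle, and Tubb3, the neuronal tubulin, had 0.627 to 1.71 against 4.05 to 8.24. Uchl1 was lowest in DT-061 library 4 and vehicle library 4 (r = -0.65 with the mean of the 4 genes), and Tubb3 had r = -0.82. Of 13 Schwann cell, 9 endothelial and 10 cardiac or skeletal muscle markers, 0 were among the rows of the table, so their levels are unknown here. A part for nerve tissue in the values was not tested.

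Some genes of the table followed the 4 within the groups most closely. Over the 8 libraries and 1097 genes with a mean of at least 1 FPKM, the highest r with the mean of the members' standardised deviations belonged to Rhobtb1, a BTB domain protein gene (0.98), Pitpnm2, a phosphatidylinositol transfer protein gene (0.96), Atp1b2, a sodium pump subunit gene (0.96), Wfdc1 (0.95) and the transcription regulator gene Tsc22d1 (0.94). Rhobtb1, Pitpnm2 and Wfdc1 also led for Tceal3 alone, Atp1b2, Gstm2 and Podxl2 for Bex3, and Clstn1, Mmp16 and Shisa4 for Tceal5. For Bex4 the leading genes were Rcl1, Kat6b and Tsc22d1. By Spearman's rho, Shisa4 fell to place 119 for Tceal5 (0.43) and Kat6b to place 38 for Bex4 (0.81). Rcl1 followed Bex4 within the groups (r = 0.95) but had a lower mean with DT-061, a log2 difference of -0.44 ± 0.11, which turned to higher with both rescalings. In all, 14 genes exceeded 0.9 for the mean.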

How the data were processed

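Poly-A RNA was sequenced as paired-end reads of 150 bases, per the labels' protocols. HISAT2 2.0.5, StringTie 1.3.3b and featureCounts 1.5.0-p3 and the mm10 build were used, per the submitters' processing notes, with no role given. The authors deposited FPKM values, and the sources used here do not give the strand setting of the counting. Of the 1329 identifiers, 1328 had a symbol in the name table and a place in GENCODE M21 (GRCm38, the same build).

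Whole fragments were recovered as FPKM times the longest GENCODE transcript times a library total. Over all 1329 rows, 63.1% were within 0.03 of whole numbers in all libraries, and the 4 genes and Armcx1 were within 8.8e-05. A total that is a whole multiple would also give whole fragments, and then counting error would be smaller.

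Differences are limma 3.58.1 (R 4.3.3) estimates with trend and robust options on log2(FPKM + 1), pseudocount 1, treatment as the only term, over the whole table. The fit gave the SE, and no p-value is used for the 4 genes. In all, 1268 rows (95.4%) had an adjusted p under 0.05, as the table was selected. The fit was tested on simulated data with independent libraries and most rows unchanged. The selected table is unlike that, so nothing is read from that test for the SEs given here. The 4 genes, the gene lists, the naming rule and the alternatives were chosen with earlier results of these data known. Named were the 4 genes, the table genes of the family and pathway lists (1 result of the neurotrophin list is not reported here), rows within 2 Mb, the 3 largest and smallest X-linked differences, up to 4 markers per cell type and the 3 genes (5 for the mean) most like each. Other names were chosen after their values or sequences were seen. Promoters are RefSeq windows on GRCm38.p6, 250 bases before to 50 after a start, matched by symbol for all 4 genes.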

Additional observations from a re-analysis of the deposited data

Results flagged for a closer look

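A library far from the others of its group was looked for in 10 groups of 4 libraries (the 4 genes and Armcx1, in 2 groups each) by the gap to its nearest neighbour over the whole range; chance alone flags about 1 in 20 groups. It was found in 2, both in DT-061 library 3. Bex3 stood at 62.6 FPKM there, with the next DT-061 library at 41.2, a gap of 0.83 of the range. Tceal5 stood at 3.43 FPKM, with the next at 2.47, a gap of 0.92 of the range.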

How the results depend on the processing

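All 4 genes kept a higher mean with DT-061 under every setting tried. With each library rescaled to one median, which shifted the table by a median of 0.69, the log2 differences were 1.48 (Bex3), 2.06 (Bex4), 1.66 (Tceal3) and 1.26 (Tceal5). With quantile normalization (shift 0.56) they were 0.73 (Bex3), 1.88 (Bex4), 1.35 (Tceal3) and 1.40 (Tceal5). With a pseudocount of 0.1, which understates low genes less, they were 0.67 (Bex3), 1.61 (Bex4), 0.95 (Tceal3) and 1.07 (Tceal5). Both rescalings assume a balance of rises and falls that a selected table need not have. Limma called 404 rows higher and 864 lower. The lower calls went to 299 and 209 with the median and quantile rescaling, so that 59.2% and 65.3% of the calls were higher against 31.9%. Rows lower without overlap went from 641 to 200 and 176. Leaving out one library gave 254 to 351 higher and 652 to 881 lower calls, the fewest higher ones without vehicle library 3. Groups that did not overlap were found in 3 to 4 of the 4 genes when 1 library was left out, and in 4 with either rescaling. Of all 1329 rows, 400 were higher without overlap, and 403 to 414 with 1 library left out. With the median and quantile rescaling, 438 and 412 were. Leaving out a library cannot lower such a count, and both rescalings shift the table upward. Nothing is therefore read from the counts of the 4 genes. With both DT-061 library 3 and vehicle library 4 removed, the differences were 0.52, 1.23, 0.83 and 0.75. The replicate block left 204 higher calls and gave SEs of 0.13, 0.35, 0.19 and 0.22 in the same order. Libraries of equal number did not deviate together (r of 0.18, -0.11, -0.05 and -0.47 for numbers 1 to 4). Each number has 1 library per group, so these values cannot settle whether the numbers pair libraries. By Spearman's rho, 9 of the 17 places among the most similar genes kept their gene. Depth limits Tceal5 and Bex4, with as few as 17 and 18 fragments in a library.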

Other observations

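Outside the X-linked families, the paired TGACG and CACGTGA element occurred near the start of Ubap2, Vps33a, Rcbtb1, Gm40744 and B230119M05Rik, the last at the Armcx4 site read from the other strand. None of these 5 was analysed here for expression.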
